A study of Mus musculus with 6 samples.

Results

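The enzymes described here are the glycosyltransferases and sulfotransferases that build and finish sugar chains in the Golgi apparatus. They were chosen by name from the gene table: protein-coding genes of the B3gnt, B3galt, B4gal, B4gat, St3, St6 and St8, Fut, Galnt, Chst, Gcnt and Mgat families. That rule found 102 genes among 55471 gene IDs. RNA was sequenced from mouse granulocyte-monocyte-lymphoid progenitors (GMLPs), sorted from bone marrow as lineage-negative, Kit+, Sca1+, CD48+, CD150- cells and kept in culture with DOX for 3 days. L28BME cells carried LIN28B together with the leukaemia fusion MLL-ENL, and ME cells carried MLL-ENL alone, with 3 libraries in each group. Both groups therefore carried the fusion and received DOX. The labels give neither the promoters that drive the alleles nor the age of the mice, nor whether replicates came from separate animals. The p-values therefore reflect the scatter of these libraries only, and that scatter may be technical.

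Sugar chains are made stepwise. The N-glycans on asparagine are branched by MGAT enzymes, the mucin-type O-glycans on serine and threonine are started by GALNT enzymes and branched by GCNT enzymes, and both are then extended with galactose and GlcNAc and capped with sialic acid, fucose or sulfate. In blood progenitors these caps are part of the selectin and Siglec ligands of the cell surface. Galectin ligands lie in the chains of galactose and GlcNAc, and sulfated chondroitin chains are carried by serglycin in granules. LIN28B blocks the maturation of let-7 microRNAs, which lower the output of messenger RNAs that hold a match to their seed.

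The let-7 family shares its seed, bases 2 to 8 of the mature RNA, in 10 mature sequences of the RefSeq set for GRCm38.p6. Examples are printed first, with the seed in capitals, because the matches to it are compared among members below. Neither let-7 itself nor any small RNA was measured.
let-7a, GRCm38.p6 chr13:48538239-48538260, minus strand: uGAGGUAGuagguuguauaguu
let-7g, GRCm38.p6 chr9:106178846-106178867, plus strand: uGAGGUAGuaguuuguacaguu

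A match to this seed reads CTACCTC in the messenger RNA and was looked for in the sense sequence of the annotated 3′ UTRs of GENCODE M21 (GRCm38). Among the 55 members that could be tested, 12 held at least 1 match (21.8%), as did 11.2% of the 10912 tested protein-coding genes with an annotated 3′ UTR. Of the 7 members whose RNA was higher in L28BME, 4 held a match (57.1%), beside 20.3% of the 1044 protein-coding genes called higher. Among the 4 were B3galt5, which passed the filter on low values only through its L28BME libraries, and B4gat1, whose call was lost when an overlapping gene model was added. Without B3galt5 the count was 3 of 6 members, and without both it was 2 of 5. Of the 10 members whose RNA was lower, 2 held a match (20%), beside 8.45% of the 793 protein-coding genes called lower, and of the 38 members that were not called 6 did (15.8%). The longest annotated 3′ UTR had a median of 1078 bases in the higher members, 1325 bases in the lower members, 2246 bases in the uncalled members and 1145 bases in all the tested protein-coding genes. These shares are descriptions of few genes, and a match is not a shown binding site. The 6 sites of called members follow, 5′ to 3′ in the sense of the messenger RNA, with the seed match in capitals.
B4gat1, higher, chr19:5040718-5040740, plus strand: gggaggtgaaaatacCTACCTCa
B3gnt7, higher, chr1:86306788-86306810, plus strand: gactggccgctctgaCTACCTCa
B3galt5, higher, chr16:96319059-96319081, plus strand: tcaccatgtggtttaCTACCTCc
St6gal1, higher, chr16:23359493-23359515, plus strand: atgggggtgacaatcCTACCTCa
Gcnt4, lower, chr13:96948070-96948092, plus strand: ggaggagggattccaCTACCTCa
Mgat5, lower, chr1:127484331-127484353, plus strand: tgaaccaatcctcttCTACCTCt

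In 4 of these sites, those of B4gat1, B3gnt7, St6gal1 and Gcnt4, the match is followed by an A, the base that lies opposite the first base of the microRNA. Matches therefore stood in members of both directions. The bases of the B4gat1 site are also exonic in Gm50388, an overlapping gene model described below.

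Of the 102 members, 55 reached at least 1 TPM (transcript abundance, scaled by transcript length to the same total in each library) in at least 3 of the 6 libraries and were tested. Of the other 47, 23 were listed at 0 in every library, and the highest value of any of them in any library was 1.22 TPM. The untested members included the sialyltransferase genes St8sia2 and St8sia3, the Lewis fucosyltransferase gene Fut9 and the bisecting enzyme gene Mgat3. B3gnt9 and B3gnt3 lay just below the limit, with at least 1 TPM in 2 libraries and in 1 library. By average over the 6 libraries, the highest members were Fut8 at 293 TPM, B4galnt1 at 258 TPM, Galnt1 at 185 TPM, Mgat2 at 143 TPM and B3gnt2 at 115 TPM. The TPM of all 102 members summed to 2252, 2297 and 2364 in the L28BME libraries, against 2460, 2403 and 2396 in the ME libraries. These sums do not overlap and were not tested, since a few abundant members set them.

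L28BME cells had more RNA of 7 tested members (12.7%) and less RNA of 10 (18.2%), while the remaining 38 were uncalled. Over all 13348 genes tested, 8.28% were higher and 6.6% lower. A gene was called where its adjusted p was under 0.05 in the limma test of log2(TPM + 1), with Benjamini-Hochberg adjustment over all genes. The 7 higher members were B4gat1, B3gnt7, B3galt5, St6gal1, B4galnt4, St3gal5 and Galnt2, and the 10 lower members were Chst13, Fut10, Mgat5, Fut7, Gcnt4, Galnt6, B4galt4, Galnt3, B3gnt2 and Mgat2. B3galt5 reached 1 TPM in L28BME libraries only, so the filter kept it only because it was high there, and 6 members were higher without it. For 27 of the 55 members (49.1%) the values of L28BME and ME were fully apart, against 36.7% of all genes tested. The median log2 fold change of the tested members was -0.05 and that of all genes was 0.00. Among the 17 called members the median absolute log2 fold change was 0.50, and 3 changed by at least 1 on the log2 scale. Higher members numbered 4 without ME replicate 1, 3 without ME replicate 2, 4 without L28BME replicate 1, 3 without L28BME replicate 2 and 4 without L28BME replicate 3. The lower members came to 6 when ME replicate 2 was left out. Whichever library was left out, 8 members kept their call, namely B4gat1, B3gnt7, Chst13, Fut10, Mgat5, Galnt6, B4galt4 and B3gnt2. When replicate number was added to the fit as a block, St3gal5, St6gal1, B4galnt4, Galnt2, Fut7, Galnt3, Gcnt4 and Mgat2 lost their call. Their limma adjusted p was then 0.0539 to 0.124.

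**Figure D1:**
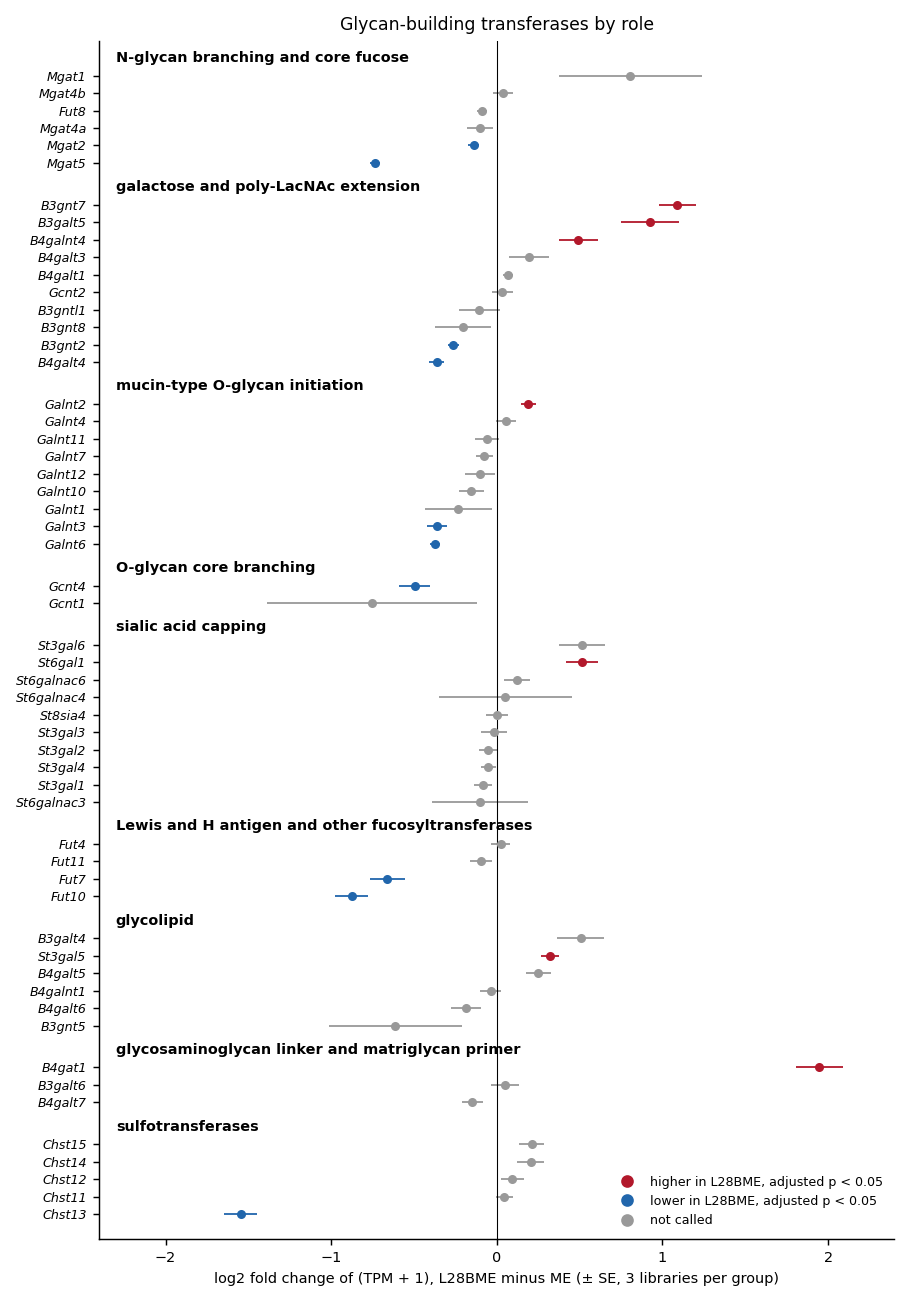
Log2 fold change of (TPM + 1), L28BME minus ME, for the 55 tested members grouped by role, with bars for the SE of the fit (3 libraries per group). Higher members lie right of 0 in red, lower members left of 0 in blue and uncalled members in grey; B4gat1 at 1.95 and Chst13 at -1.55 are the extremes.

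Lin28b was at 11.2, 11.7 and 11.9 TPM in L28BME and was listed at 0 in every ME library, as labelled. The markers of the sort and of other blood cells were read in the same libraries. In bulk RNA, fewer cells of a type and less RNA per cell cannot be told apart. Kit was at 73.2 to 88.4 TPM in L28BME and 76.5 to 106 TPM in ME, Cd48 at 226 to 231 TPM in L28BME and 291 to 302 TPM in ME, and Slamf1, which encodes CD150, at or below 0.706 TPM throughout. Ly6a, which encodes Sca1, was at 1.38 to 3.18 TPM in L28BME and 9.64 to 11.8 TPM in ME, low in L28BME for a marker of the sort. The 5 megakaryocyte markers summed to 134 to 153 TPM in L28BME and 80.9 to 84.1 TPM in ME, and 4 of them were called higher. The 5 monocyte and macrophage markers summed to 51.9 to 63.1 TPM in L28BME and 81.4 to 86.9 TPM in ME, with Csf1r higher and Cd14 and Itgam lower. Of these, Itgam alone was at 12.9 ± 5.83 TPM in L28BME and 41.2 ± 2.77 TPM in ME. The 6 erythroid markers summed to 20.97 to 34.02 TPM in L28BME and 10.9 to 19.7 TPM in ME, with none called. Flt3, a marker of lymphoid-primed progenitors, was at 187 ± 2.10 TPM in L28BME and 96.6 ± 3.96 TPM in ME and was called higher. Cd34, another progenitor marker, was called lower, at 440 ± 3.76 TPM in L28BME and 506 ± 3.71 TPM in ME. Ptprc was at 137 ± 11.3 TPM in L28BME and 128 ± 11.4 TPM in ME and was not called. Only Pecam1 was tested among the 6 stroma and endothelium markers. It was called lower, at 113 ± 2.45 TPM in L28BME and 163 ± 0.668 TPM in ME. The others were low in all libraries of both groups. Cxcl12 was at 0 throughout, Cdh5, Lepr and Col1a1 at or below 0.139 TPM, and Col1a2 at or below 0.444 TPM. Summed levels of the 5 neutrophil markers were 18.3 to 22.0 TPM in L28BME and 11.6 to 12.9 TPM in ME. Among them only Ltf was called, higher at 9.42 ± 0.306 TPM in L28BME and 4.84 ± 0.190 TPM in ME. The 5 mast cell and basophil markers summed to 376 to 388 TPM in L28BME and 447 to 479 TPM in ME, with 2 lower. Of the 5 B cell markers only Cd79b was tested, at 56.9 ± 2.33 TPM in L28BME and 27.2 ± 0.673 TPM in ME (mean ± SD, n = 3 each, here and below), and it was called higher. The 6 T cell markers summed to 3.95 to 5.67 TPM in L28BME and 1.75 to 2.46 TPM in ME. Most of that was Cd5, called higher, while Cd3e and Cd8a were at 0 in every library. The 3 NK cell markers summed to at most 0.331 TPM in L28BME and 0.124 TPM in ME, with Ncr1 at 0 throughout. The part of these markers in the results below was not tested.

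Genes of N-glycan branching and core fucose fell in 2 of 6 tested members and rose in none. Mgat5, which adds the branch that carries the longest poly-LacNAc chains and thereby galectin ligands, had 67.6, 66.2 and 67.8 TPM in L28BME, against 113, 113 and 112 TPM in ME. The 3 L28BME libraries lay close together and far below the ME libraries (fold 0.597, log2 fold change -0.73, SE 0.030, limma adjusted p = 1.60e-04). Mgat2, which adds the GlcNAc that turns a hybrid into a complex N-glycan, had 135, 141 and 133 TPM in L28BME, against 151, 148 and 152 TPM in ME. Its difference was small (log2 fold change -0.14, SE 0.035, limma adjusted p = 0.0463). The call was lost without any 1 library other than L28BME replicate 2 (adjusted p = 0.0983 to 0.130). Dropping the intensity trend (adjusted p = 0.104) or the filter on low values (adjusted p = 0.0632) also ended it. Fut8, which adds the core fucose, had 288, 287 and 276 TPM in L28BME, against 307, 301 and 297 TPM in ME, and was not called (limma adjusted p = 0.107). Mgat4a and Mgat4b, which add another branch, were at 22.8 ± 2.05 and 62.1 ± 1.27 TPM in L28BME, against 24.6 ± 1.36 and 60.6 ± 4.14 TPM in ME.

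Mgat1, which starts all hybrid and complex N-glycans, gave unsteady values within groups. It had 33.8, 89.8 and 99.3 TPM in L28BME, against 41.4, 28.2 and 46.8 TPM in ME. L28BME replicate 1 lay within the ME range, and the other L28BME libraries lay above it. The gene was not called (log2 fold change 0.81, SE 0.43, limma adjusted p = 0.275). Without L28BME replicate 1 it was called higher (log2 fold change 1.29, adjusted p = 0.0323). Zfp62, a zinc finger gene upstream of Mgat1 on the same strand, had 30.1, 9.19 and 8.08 TPM in L28BME, against 8.14, 46.5 and 7.06 TPM in ME, and was chosen after its values were seen. The library with the lowest Mgat1 in each group was the library with the highest Zfp62. Whether reads were divided between these gene models was not tested.

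Extension of chains with galactose and GlcNAc moved both ways, with 3 of 10 tested members higher and 2 lower. B3gnt7, a GlcNAc transferase of poly-LacNAc chains such as keratan sulfate, had 17.7, 15.2 and 16.3 TPM in L28BME, against 6.31, 6.97 and 8.36 TPM in ME. All L28BME libraries lay well above all ME libraries (fold 2.28, log2 fold change 1.09, SE 0.11, limma adjusted p = 0.00276). B3gnt2, the main poly-LacNAc GlcNAc transferase of many tissues, went the other way, with 105, 103 and 104 TPM in L28BME, against 128, 123 and 124 TPM in ME (log2 fold change -0.26, SE 0.031, limma adjusted p = 0.00414). B4galt4, a galactosyltransferase that makes LacNAc, also fell, with 31.0, 28.9 and 29.7 TPM in L28BME, against 38.0, 39.0 and 39.1 TPM in ME (log2 fold change -0.36, SE 0.046, limma adjusted p = 0.00495). In these cells a GlcNAc transferase of lower level was higher and a more abundant one lower. The galactosyltransferase B4galt1, the most abundant of its family here, was at 94.2 ± 0.392 TPM in L28BME and 89.9 ± 1.06 TPM in ME and was not called (limma adjusted p = 0.200). B4galt3 was at 26.9 ± 2.56 TPM in L28BME and 23.5 ± 3.34 TPM in ME.

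The other higher members of this class were near the threshold. B3galt5, which makes type 1 chains, had 2.17, 2.71 and 1.55 TPM in L28BME, against 0.559, 0.833 and 0.537 TPM in ME (log2 fold change 0.92, SE 0.17, limma adjusted p = 0.0199). This call was lost without ME replicate 1 or 3 or L28BME replicate 1 or 2 (adjusted p = 0.0537 to 0.0705). B4galnt4, which adds GalNAc to GlcNAc to make LacdiNAc, had 13.2, 10.98 and 11.4 TPM in L28BME, against 7.75, 7.29 and 9.50 TPM in ME (log2 fold change 0.49, SE 0.12, limma adjusted p = 0.0425). It lost its call without any 1 library other than ME replicate 3 (adjusted p = 0.0765 to 0.119), and when low genes were kept in (adjusted p = 0.0830).

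B4gat1 had the largest fold of all tested members. Its product primes the matriglycan of dystroglycan with glucuronic acid, and the gene (ENSMUSG00000047379) lies on chromosome 19 at 5038826 to 5041131 of GRCm38. It had 14.8, 16.6 and 17.2 TPM in L28BME, against 3.81, 4.04 and 2.64 TPM in ME, with no overlap (fold 4.63, log2 fold change 1.95, SE 0.14, limma adjusted p = 9.48e-04). Gm50388, a protein-coding model on the same strand, shares 1967 of the 2306 exonic bases of B4gat1. It had 9.56, 8.65 and 7.41 TPM in L28BME, against 19.3, 11.4 and 16.6 TPM in ME, and was called lower (log2 fold change -0.79, limma adjusted p = 0.0457). The sum of both models was 24.4, 25.2 and 24.6 TPM in L28BME, against 23.1, 15.5 and 19.2 TPM in ME. That sum was above ME in every L28BME library but did not pass the test (log2 fold change 0.36, SE 0.14, limma adjusted p = 0.138), so the change of the locus as a whole was not called. B4galt7 and B3galt6, which build the linker of glycosaminoglycans, were not called, with B4galt7 at 38.5 ± 2.89 TPM in L28BME and 42.7 ± 1.07 TPM in ME.

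**Figure D2:**
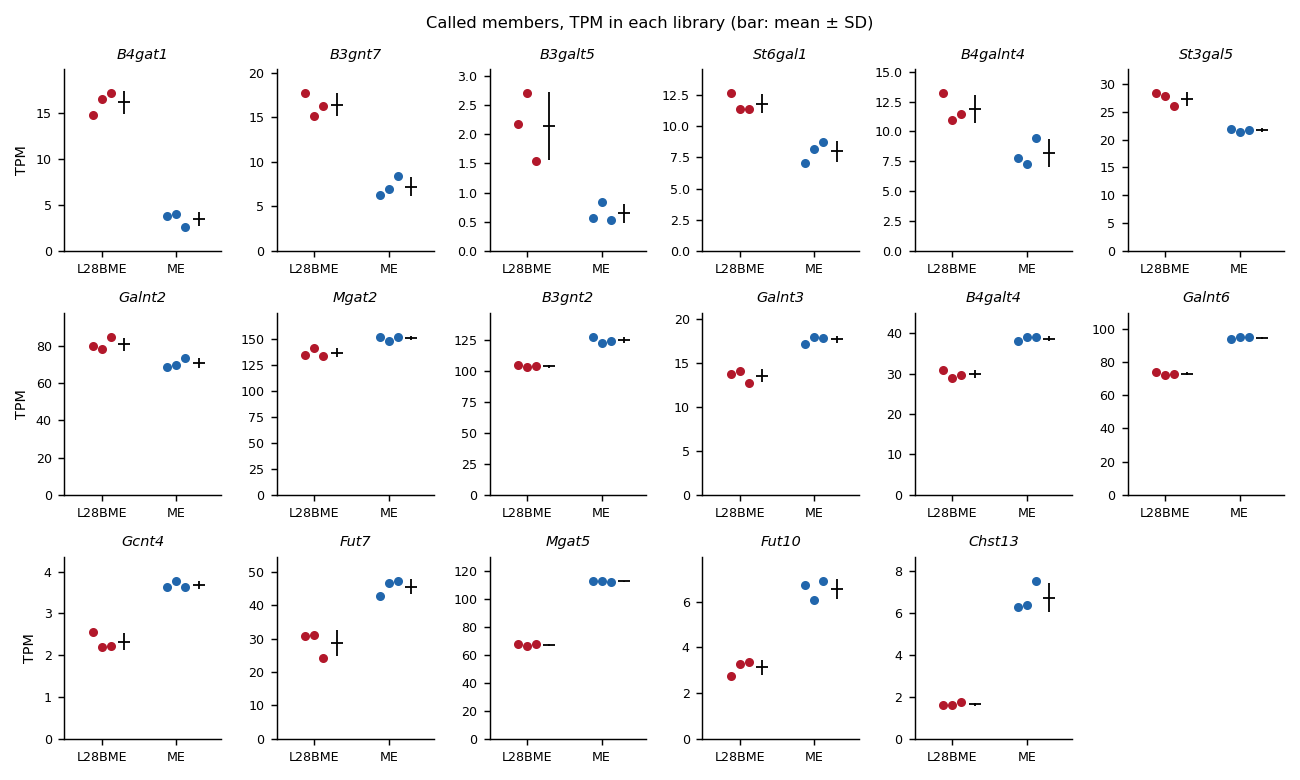
TPM of the 17 called members in each library, L28BME in red left of ME in blue, with the mean and SD (n = 3) beside the points, ordered from the most positive to the most negative log2 fold change. In each panel the points of the groups do not overlap; Mgat5 shows tight groups far apart and Chst13 the largest drop.

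Initiation of mucin-type O-glycans had 2 of 9 tested members lower and 1 higher. Galnt6 had 73.7, 72.3 and 72.4 TPM in L28BME, against 93.9, 94.8 and 94.9 TPM in ME (log2 fold change -0.37, SE 0.031, limma adjusted p = 0.00124). Its close relative Galnt3 had 13.8, 14.1 and 12.7 TPM in L28BME, against 17.2, 17.9 and 17.8 TPM in ME (log2 fold change -0.36, SE 0.062, limma adjusted p = 0.0151). The call of Galnt3 was lost without ME replicate 2 or 3 (adjusted p = 0.0565 to 0.0588). Galnt2, one of the broadly used initiating enzymes, had 79.8, 78.1 and 84.7 TPM in L28BME, against 68.7, 69.8 and 73.6 TPM in ME. This small rise (log2 fold change 0.19, SE 0.048, limma adjusted p = 0.0480) was lost whichever library was left out (adjusted p = 0.0675 to 0.134), with median-ratio scaling (adjusted p = 0.0522), with no filter (adjusted p = 0.0702) and without an intensity trend (adjusted p = 0.0787).

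Galnt1, the most abundant member of this class, had 163, 165 and 175 TPM in L28BME, against 235, 232 and 140.1 TPM in ME. ME replicate 3 lay below all L28BME libraries and the other ME libraries above them, so the gene was not called (log2 fold change -0.23, limma adjusted p = 0.498). Without ME replicate 3 it was called lower (log2 fold change -0.48, adjusted p = 0.00735). Galnt7 was at 35.2 ± 1.41 TPM in L28BME and 37.1 ± 1.33 TPM in ME, and Galnt11 at 20.7 ± 1.76 TPM in L28BME and 21.6 ± 0.318 TPM in ME, both uncalled.

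O-glycan branching rests on 2 tested genes. Gcnt4, a core 2 enzyme, had 2.56, 2.19 and 2.21 TPM in L28BME, against 3.63, 3.78 and 3.63 TPM in ME (log2 fold change -0.50, SE 0.092, limma adjusted p = 0.0193). It was called only with all libraries or without L28BME replicate 1, and otherwise had adjusted p = 0.0583 to 0.0705, and with no filter 0.0579. Gcnt1, the main core 2 enzyme of leukocytes and a step towards selectin ligands, had 38.5, 6.85 and 39.1 TPM in L28BME, against 37.7, 37.4 and 39.0 TPM in ME. All libraries but L28BME replicate 2 lay between 37.4 and 39.1 TPM. It was not called, with a log2 fold change of -0.75 and limma adjusted p = 0.483, and without that library the log2 fold change was 0.03.

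Fucosyltransferases other than Fut8 fell in 2 of 4 tested members. Fut8, grouped above with N-glycan branching, was not called (limma adjusted p = 0.107). Fut7, which completes the sialyl Lewis x of selectin ligands, had 30.7, 31.2 and 24.0 TPM in L28BME, against 42.9, 46.6 and 47.3 TPM in ME (fold 0.628, log2 fold change -0.66, SE 0.11, limma adjusted p = 0.0128). Its call was lost without ME replicate 2 (adjusted p = 0.0504). Fut10, a further member of the family, had 2.75, 3.26 and 3.36 TPM in L28BME, against 6.72, 6.06 and 6.90 TPM in ME (fold 0.476, log2 fold change -0.88, SE 0.099, limma adjusted p = 0.00366). Fut4, which can also make Lewis x, was at 14.9 ± 0.674 TPM in L28BME and 14.6 ± 0.302 TPM in ME, and its log2 fold change of 0.02 had an SE of 0.060. The difference between Fut7 and Fut4 in response was not tested.

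Sialyltransferases were mostly uncalled, with 1 of 10 tested capping members higher and none lower. St6gal1, which caps LacNAc on N-glycans and makes ligands of the B cell lectin CD22, had 12.7, 11.4 and 11.3 TPM in L28BME, against 7.04, 8.18 and 8.69 TPM in ME (fold 1.48, log2 fold change 0.51, SE 0.095, limma adjusted p = 0.0193). Its call was lost without ME replicate 2 or any L28BME library (adjusted p = 0.0518 to 0.0648). St3gal6, a sialyltransferase of selectin ligands, did not overlap between groups, with 4.86, 5.44 and 4.01 TPM in L28BME, against 2.92, 3.58 and 2.61 TPM in ME. It did not pass (log2 fold change 0.52, limma adjusted p = 0.0620) and passed when only protein-coding genes were tested (adjusted p = 0.0482). St3gal4, which acts on the same ligands and is far more abundant, was at 70.4 ± 3.53 TPM in L28BME and 73.0 ± 0.508 TPM in ME. The remaining abundant members, St3gal1, St3gal2, St6galnac6 and the polysialyltransferase gene St8sia4, had log2 fold changes of -0.08, -0.05, 0.12 and 0.00. St6galnac4, which adds sialic acid to sialylated core 1, had 32.6, 72.5 and 70.7 TPM in L28BME, against 68.4, 33.5 and 65.6 TPM in ME, so that 1 library of each group was at about the same low level.

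**Figure D3:**
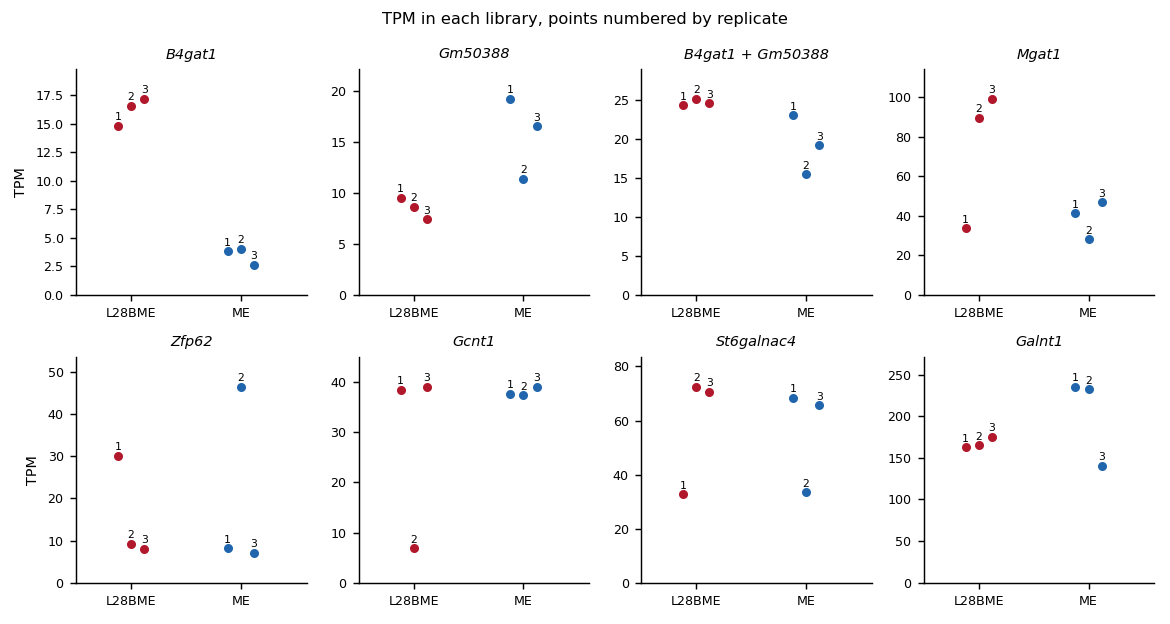
TPM in each library, numbered by replicate, L28BME in red left of ME in blue, for B4gat1, its overlapping model Gm50388 and their sum, and for Mgat1, its neighbour Zfp62, Gcnt1, St6galnac4 and Galnt1. B4gat1 and Gm50388 differ in opposite directions, and single libraries stand apart in the other panels, such as Gcnt1 in L28BME replicate 2 at 6.85 TPM.

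Transferases of glycolipids had 1 of 6 tested members higher. St3gal5, the GM3 synthase that opens the ganglioside pathway, had 28.4, 27.7 and 25.9 TPM in L28BME, against 21.9, 21.3 and 21.7 TPM in ME (fold 1.26, log2 fold change 0.32, SE 0.053, limma adjusted p = 0.0132). The call was lost without ME replicate 2 (adjusted p = 0.0520). B4galt5, a lactosylceramide synthase just before it in the pathway, was at 31.1 ± 1.93 TPM in L28BME and 26.0 ± 1.81 TPM in ME, without overlap but not called (limma adjusted p = 0.0768). B3galt4, which acts later in ganglioside synthesis, was at 7.06 ± 0.537 TPM in L28BME and 4.72 ± 0.980 TPM in ME (log2 fold change 0.51, limma adjusted p = 0.0661), and was called higher without ME replicate 3 (adjusted p = 0.0408). B4galnt1, the GM2 and GD2 synthase and by far the most abundant of this class, was at 255 ± 21.1 TPM in L28BME and 262 ± 4.87 TPM in ME (log2 fold change -0.04, SE 0.061). B3gnt5, which starts the lacto series, varied by library, with 7.58, 2.99 and 7.82 TPM in L28BME, against 6.12, 14.1 and 9.02 TPM in ME (limma adjusted p = 0.368).

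Among the sulfotransferases, 1 of 5 tested members fell and none rose. Chst13, a chondroitin 4-O-sulfotransferase, had 1.61, 1.59 and 1.74 TPM in L28BME, against 6.29, 6.40 and 7.54 TPM in ME (ENSMUSG00000056643, chromosome 6, 90308349 to 90325185 of GRCm38). All L28BME libraries lay far below all ME libraries (fold 0.244, log2 fold change -1.55, SE 0.099, limma adjusted p = 6.14e-04). Chst11 and Chst12 share its reaction and had more RNA, with Chst11 at 39.1 ± 1.34 TPM in L28BME and 37.9 ± 1.64 TPM in ME, and Chst12 at 56.6 ± 3.32 TPM in L28BME and 53.0 ± 3.66 TPM in ME. Neither was called (limma adjusted p = 0.626 and 0.413). The RNA of these 3 genes together was therefore mostly that of members that were not called.

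Other genes of glycosylation were taken from a list drawn up by function. Of 128 tested, 11 were higher (8.59%) and 22 lower (17.2%) in L28BME, beside 8.28% and 6.6% of all genes, with a median log2 fold change of -0.06. The 30 tested genes of N-glycan assembly and trimming had 8 lower and none higher, and the oligosaccharyltransferase subunit genes Ostc and Dad1 were at 334 ± 7.10 and 186 ± 2.30 TPM in L28BME, against 407 ± 6.74 and 214 ± 1.73 TPM in ME. The glucosidase gene Mogs and the mannosidase gene Man2a1, which trim the chains at the start and after the step of MGAT1, were at 152 ± 4.06 and 30.3 ± 1.03 TPM in L28BME, against 184 ± 5.93 and 36.7 ± 0.907 TPM in ME. Of 29 nucleotide sugar genes, 3 were higher and 6 lower. Cmas, which activates sialic acid, rose to 122 ± 3.38 TPM in L28BME, against 94.1 ± 1.74 TPM in ME (limma adjusted p = 0.00205), while Slc35b1, a nucleotide sugar transporter family gene, and Gfpt1 and Uap1, enzymes of UDP-GlcNAc synthesis, were lower. C1galt1, which makes the core 1 that GCNT and ST3GAL enzymes use, rose to 36.1 ± 2.03 TPM in L28BME, against 26.9 ± 0.319 TPM in ME (limma adjusted p = 0.00625).

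Partners of single members moved in either direction. Dag1, which encodes dystroglycan, was not called at 44.8 ± 8.91 TPM in L28BME and 52.2 ± 1.96 TPM in ME (limma adjusted p = 0.341). Of 22 genes of glycosaminoglycan chains 4 were higher and 3 lower, and Srgn, the serglycin core protein, fell to 1302 ± 29.0 TPM in L28BME, against 1555 ± 28.6 TPM in ME (limma adjusted p = 0.00317). Dse, an epimerase of dermatan sulfate, rose to 9.90 ± 0.684 TPM in L28BME, against 6.14 ± 0.256 TPM in ME. Ugcg, which makes the glucosylceramide used by B4galt5, rose to 64.1 ± 3.36 TPM in L28BME, against 51.0 ± 2.44 TPM in ME (limma adjusted p = 0.0167). Of 8 carriers of selectin ligands and related glycoproteins, 1 was higher and 3 lower. Spn, the mucin CD43, fell to 285 ± 7.27 TPM in L28BME, against 356 ± 7.74 TPM in ME, and Selplg, which encodes PSGL-1, was at 197 TPM in L28BME and 209 TPM in ME and was not called (limma adjusted p = 0.683).

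**Figure D4:**
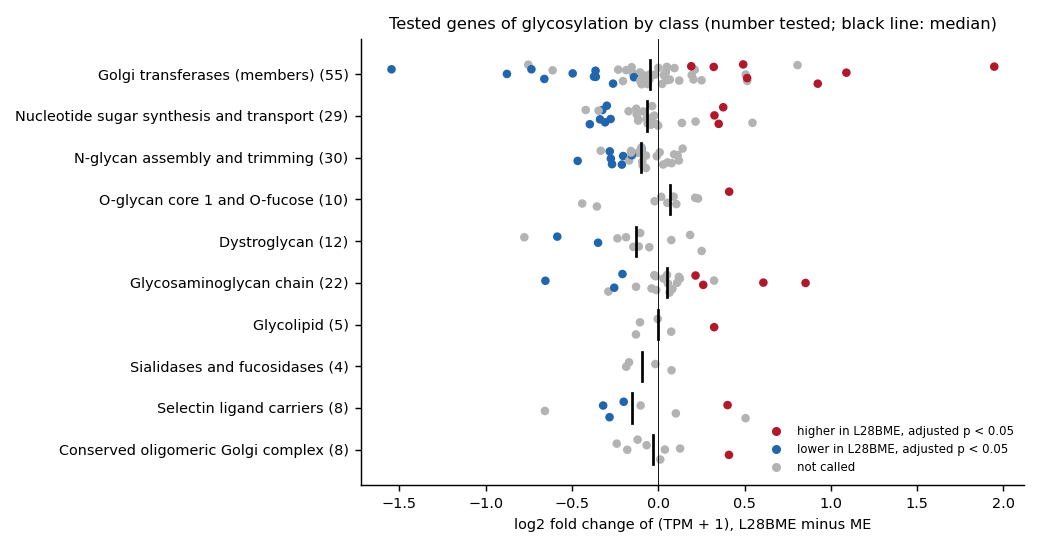
Log2 fold change of (TPM + 1), L28BME minus ME, for the 55 tested Golgi transferases and for 128 tested genes of other steps of glycosylation, by class, with higher genes in red, lower genes in blue, uncalled genes in grey and the median as a black line. The 30 genes of N-glycan assembly hold 8 lower and no higher genes, and B4gat1 at 1.95 stands farthest right.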

How the data were processed

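Programs named in the submitters' processing notes are StringTie, HISAT2, bcl2fastq and DESeq2, with build GRCm38, and the sources used here give neither versions nor a strand setting. The authors deposited TPM for each gene in each library, so depth is unknown and no counting interval is given. The percent GC of each gene is a deposited annotation column.

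Rows of 1 gene ID were summed. Values were tested as log2(TPM + 1), so that fold changes of low genes are understated, for genes with at least 1 TPM in at least 3 of 6 libraries. Two-sided tests used limma (3.58.1, R 4.3.3) with its intensity trend option. Benjamini-Hochberg adjustment ran over 13348 genes, and calls were made at 0.05. Plain folds are ratios of mean TPM. The fit was checked on simulated data. Positions, exonic overlaps and 3′ UTRs came from GENCODE M21, which held all 102 members and 13341 of the tested IDs. Members, lists and tests were chosen with earlier results of these data known. Named members were those called, those whose mean in either group reached 20 TPM, and uncalled ones of at least 1 TPM with an absolute log2 fold change of at least 0.5. Fut4, B3galt6, St6galnac3 and a few untested members fall outside that rule and were chosen after their values were seen.

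Alternatives were pseudocounts, filters, scaling, variance options, protein-coding genes only, summed overlapping models, removal of a GC trend, a replicate block and leaving out each library.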

Additional observations from a re-analysis of the deposited data

How the results depend on the processing

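No called member changed direction under any of the 18 alternatives, and 7 of 17 kept their call under all of those in which they were tested (B3gnt2, B3gnt7, B4galt4, Chst13, Fut10, Galnt6 and Mgat5). With other pseudocounts, filters, scaling, variance options, protein-coding genes only, overlapping models summed or a GC trend removed, 6 to 8 members were higher and 8 to 11 lower. These were not always the same members. With no filter 79 members were tested, and 5 of the 7 higher ones were higher in the main fit. With models on either strand summed 63 were tested, and 6 of 7 higher and 10 of 11 lower ones were shared. Without any 1 library, 3 to 6 were higher and 6 to 9 lower, with fewer samples in the fit. Equal replicate numbers did not go with shared deviations (r = -0.03, -0.07 and -0.05 for numbers 1, 2 and 3), and with the replicate block 3 members were higher and 6 lower. Of 38 uncalled members, 4 were called under some alternative: Mgat1, Galnt1 and B3galt4 without 1 library and St3gal6 among protein-coding genes only. Median percent GC was 51.6 in the higher members, 46.6 in the lower ones and 46.3 in all genes tested. Depth is unknown, so its limit on low members could not be given.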

Other observations

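Within-group spread was uneven among the tested members. The SD of TPM as a share of the mean had a median of 6.36% in L28BME and 5.18% in ME, and it was 65.5% for Gcnt1, 47.7% for Mgat1, 44.4% for B3gnt5, 44.2% for St6galnac3 and 38.4% for St6galnac4 in L28BME. In ME it was 2.31% for Gcnt1, 24.7% for Mgat1, 41.6% for B3gnt5, 37.7% for St6galnac3, 34.7% for St6galnac4 and 26.7% for Galnt1. The libraries that stood apart were shared by some genes and differed between others. L28BME replicate 2 was low for Gcnt1 and B3gnt5. L28BME replicate 1 and ME replicate 2 were low for St6galnac4 and Mgat1, and ME replicate 3 for Galnt1. None of these genes shares exonic bases, by GENCODE M21, with another gene model of the deposited table. The cause of the spread was not tested.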
